A study of Mastomys natalensis with 4 samples.

Results

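Absorptive enterocytes are the cells that line the villi of the small intestine. Their free surface is a brush border of microvilli, each held up by a core of bundled actin and studded with digestive enzymes, and their cytoplasm carries absorbed fatty acids to where they are packed into lipoproteins. Many genes of this programme, though not all, are weak or absent in the normal acid-secreting stomach and serve there as marks of intestinal-type epithelium. The genes examined here were 5 named members of that programme. Villin (Vil1) bundles actin in the microvilli. Intestinal alkaline phosphatase (Akp3) is an enzyme anchored on the brush border. The liver-type and intestinal-type fatty acid-binding proteins (Fabp1 and Fabp2) carry fatty acids inside the cell, and galectin-4 (Lgals4) is a sugar-binding protein of digestive epithelia that helps to sort proteins to the apical membrane. Whether Lgals4 marks intestinal-type epithelium in the stomach studied here was not tested.

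The genes were chosen by their mouse symbols: each probe set whose annotation gives exactly 1 symbol, and that symbol a member, was taken. All 5 genes were found, on 6 of the 12488 probe sets of the array, with 2 probe sets for Fabp1 and 1 for each of the others. The samples were stomach lining of the rodent Mastomys natalensis, which readily forms tumours of the histamine-producing enterochromaffin-like (ECL) cells of the stomach. All were given loxtidine, spelled loxitidine by the submitters, which blocks histamine H2 receptors and so acid secretion. The 16-week group held 2 samples, at the stage labelled neoplasia of ECL cells, and the 8-week group held 2 samples, at the stage labelled hyperplasia. Both groups received the drug and no untreated mucosa was analysed here. Time on the drug and stage therefore cannot be told apart. The labels used here give no age, sex or strain, do not say whether samples came from separate or pooled animals, and give each sample a lot batch of its own, so the spread behind each p-value is that between these samples and may be technical.

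Values are the authors' deposited intensities, a linear brightness per probe set from Affymetrix mouse U74 arrays. The probes match mouse sequence, so a low reading can also mean a poor match to the Mastomys transcript. Values under a floor of 12.15 were treated as not measurable, and 55.3% to 62.4% of the probe sets of an array lay above it. The log2 values of the tested probe sets correlated across genes at 0.909 between the 16-week samples and at 0.927 between the 8-week samples, and no pair of arrays was a duplicate. Markers of the acid-secreting stomach were bright throughout: the proton pump subunit Atp4a lay between 4034 and 5304 and the surface cell peptide Tff1 between 4094 and 4910. In bulk tissue, fewer cells of a type and less RNA per cell cannot be told apart.

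The 6 probe sets had a common feature that has to be given before the groups are compared. Each was brightest in 8-week sample 1, a position that this sample held on 15.5% of all probe sets other than controls. On 4 of the 6, those of Akp3, Lgals4 and Fabp2 and 1 of those of Fabp1, that sample was at least 2-fold above the brightest of the other 3 samples, which held for 0.741% of all probe sets. Other samples stood alone in this way on a like share of the array: 8-week sample 2 on 0.362%, 16-week sample 1 on 0.644% and 16-week sample 2 on 0.934%. The comparison was chosen with earlier results of these data known. The differences of the tested members are given with and without 8-week sample 1.

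**Figure D1:**
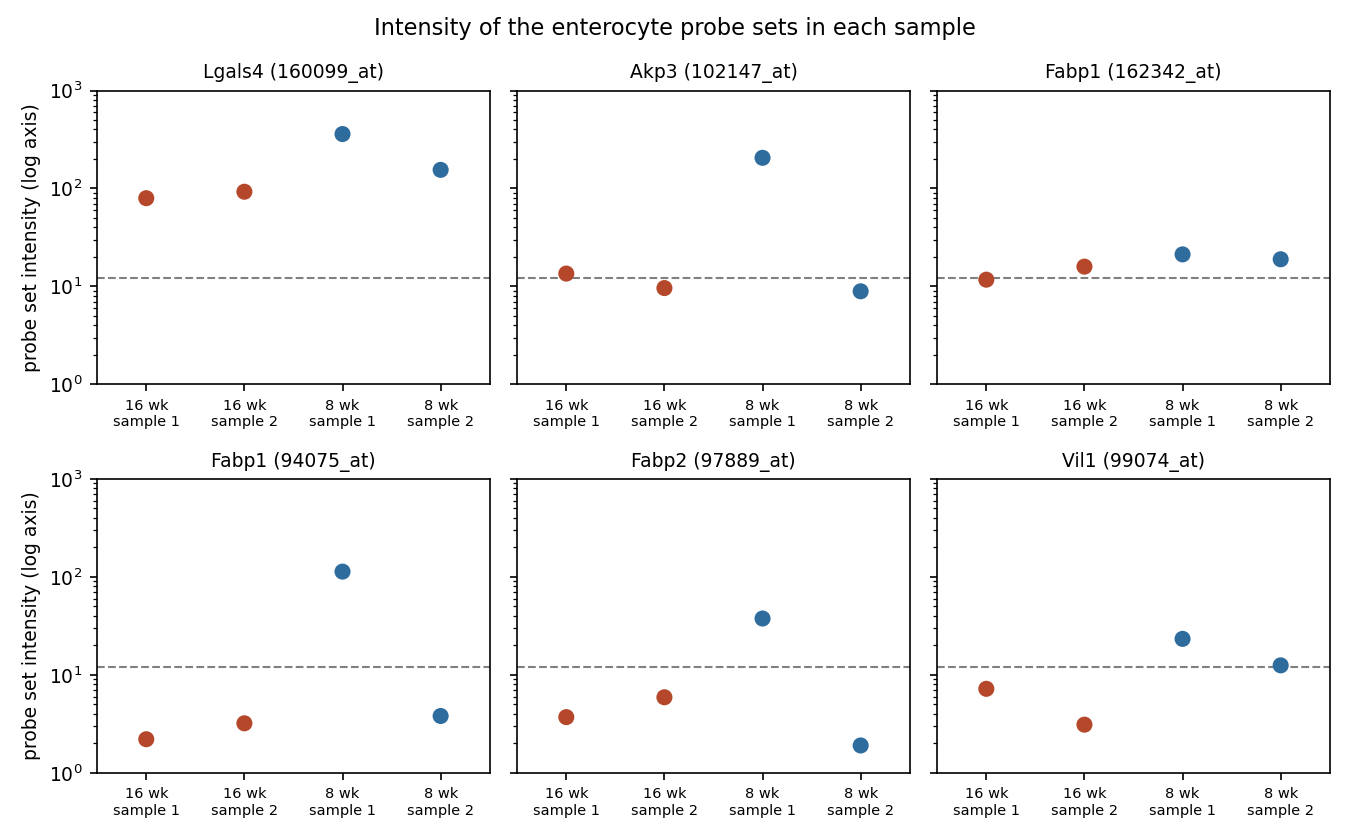
Deposited intensity (log axis) of the 6 enterocyte probe sets in each sample, 16-week samples in red on the left and 8-week samples in blue on the right, with the floor of 12.15 as a dashed line. Every probe set is brightest in 8-week sample 1; Akp3 reads 205 there and at most 13.5 elsewhere, while Lgals4 stays above the floor in all 4 samples.

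Of the structural gene of the brush border, Vil1, little signal was seen. It read 7.2 and 3.1 in the 16-week samples, against 23.3 and 12.5 in the 8-week samples. The groups did not overlap, but both 16-week values lay under the floor and 8-week sample 2 lay just above it. With values under the floor set to it, the log2 difference, 16 weeks minus 8 weeks, was -0.49 ± 0.36 (SE, n = 2 per group), with a limma adjusted p of 0.549. The probe set passed the filter through the 8-week group alone. Without 8-week sample 1 the difference was -0.04.

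The brush border enzyme Akp3 had the widest spread of the members once values under the floor were set to it. It read 13.5 and 9.6 in the 16-week samples, against 205 and 8.9 in the 8-week samples. Only 8-week sample 1 was clearly bright, the groups overlapped, and 16-week sample 2 and 8-week sample 2 lay under the floor. In the 8-week group sample 1 was thus at least 16.9-fold above sample 2. The difference between the groups was -1.96 ± 1.30 (SE, n = 2 per group; limma adjusted p = 0.515), and without 8-week sample 1 it was 0.08, so its direction rests on that sample. Mouse has close relatives of this gene, among them Alpi, which the annotation used here does not name, and a probe set may read more than 1 of them.

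The carriers of fatty acids showed the same sample. Fabp2, the carrier found mainly in the small intestine, read 3.7 and 5.9 in the 16-week samples, against 37.6 and 1.9 in the 8-week samples. It was measurable in 8-week sample 1 alone, where it was at least 3.09-fold above each of the others, and it was not tested for that reason. Fabp1, which is abundant in liver and in the proximal intestine, was read by 2 probe sets that did not behave alike. Its brighter probe set read 2.2 and 3.2 in the 16-week samples, against 113 and 3.8 in the 8-week samples, so that 8-week sample 1 was at least 9.33-fold above each of the others. This probe set also lay above the floor in too few samples to be tested.

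The dimmer Fabp1 probe set lay near the floor in all samples. It read 11.7 and 15.9 in the 16-week samples, against 21.2 and 18.9 in the 8-week samples, and the ratio of 8-week sample 1 to sample 2 was only 1.12. The groups did not overlap, and the difference was -0.53 ± 0.26 (SE, n = 2 per group; limma adjusted p = 0.421), or -0.44 without 8-week sample 1. The disagreement of the probe sets concerns that sample most: 1 probe set placed it far above the rest and the other did not. Which of them follows the Mastomys transcript was not tested.

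Lgals4 was the brightest of the 6 probe sets over all samples and the only one above the floor in every sample. It read 79.5 and 92.5 in the 16-week samples, against 359 and 155 in the 8-week samples, with means of 86.0 ± 9.19 and 257 ± 145 (SD, n = 2 each). Both 16-week samples lay below both 8-week samples, and the 16-week samples lay closer together. The difference was -1.46 ± 0.45 (SE, n = 2 per group), or 2.75-fold, with an unadjusted limma p of 0.0225 and an adjusted p of 0.326 over all probe sets. Without 8-week sample 1 it was -0.85, and with that sample alone as the 8-week group -2.07. Its direction did not rest on that sample: against 8-week sample 2 it was 1.95-fold lower in 16-week sample 1 and 1.67-fold lower in 16-week sample 2. Mouse strains can carry Lgals6, a nearly identical neighbour that the annotation used here does not name, and signal of such copies could not be separated.

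**Figure D2:**
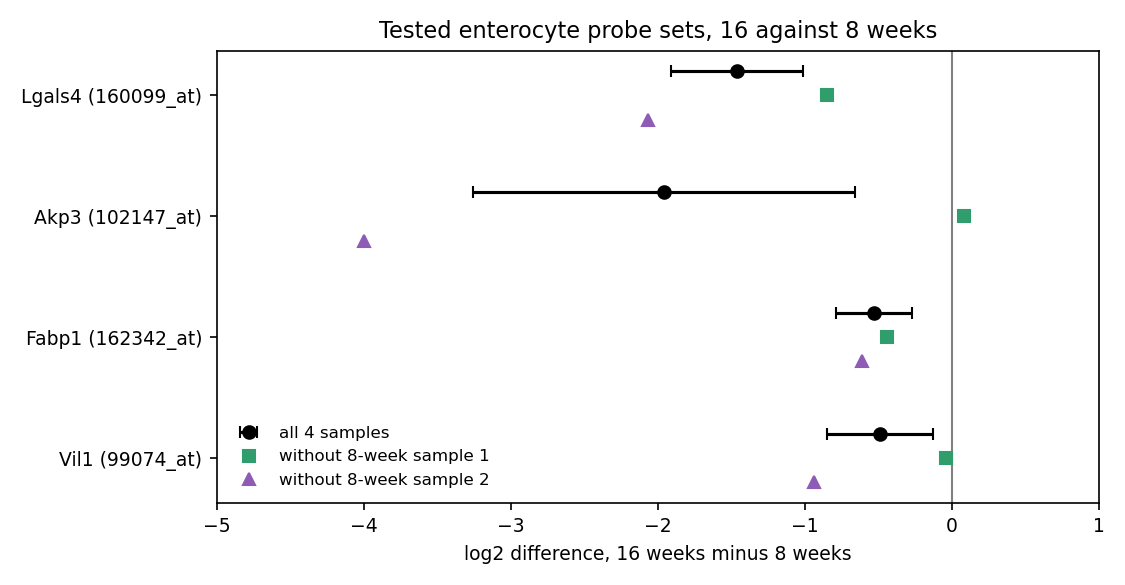
Log2 difference, 16 weeks minus 8 weeks, of the 4 tested enterocyte probe sets, with all 4 samples (circles, bars are the SE) and with either 8-week sample left out (squares and triangles, no error drawn). Without 8-week sample 1 the differences of Akp3 and Vil1 are 0.08 and -0.04, while that of Lgals4 is -0.85.

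Between the stages as a whole, 0 of the 4 tested member probe sets passed limma's test at an adjusted p of 0.05, as did 0 of the 7883 probe sets tested (0%). At an unadjusted p under 0.05 there was 1 member lower at 16 weeks, Lgals4, where 5.87% of all tested probe sets were. The intensities of 4 of the 6 member probe sets, those of Lgals4, Vil1 and both of Fabp1, were lower in both 16-week samples than in both 8-week samples, against 15.5% of all probe sets other than controls. On the brighter Fabp1 probe set 3 of the 4 values lay under the floor, where values have no order. An exact permutation test of 2 against 2 samples cannot give a 2-sided p below 0.333, so none is given for single genes.

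The samples were also taken in pairs. In 16-week sample 1, 4 of the 6 member probe sets were at least 2-fold lower than in 8-week sample 1, where 3.29% of all probe sets were. The same 4 were at least 2-fold lower in 16-week sample 2 than in 8-week sample 1, against 4.81% of all probe sets. Lgals4 was 4.52-fold and 3.88-fold lower in these pairs. Set against 8-week sample 2, 0 of the 6 were 2-fold lower in 16-week sample 1 (2.93% of all probe sets) and 0 in 16-week sample 2 (4.85%). Between samples of 1 stage, the 4 probe sets were at least 2-fold higher in 8-week sample 1 than in sample 2 (2.14% of all probe sets), and 0 of the 6 were 2-fold lower in 16-week sample 2 than in sample 1 (3.61%). For Fabp2 and the brighter Fabp1 probe set the other 3 samples all stand at the floor, so their gaps to 8-week sample 1 are equal by construction.

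Other genes of the intestinal epithelium were read from 8 lists, which hold 118 genes, 74 of them named by the annotation and 49 tested. At 16 weeks 25 of the 49 were higher and 24 lower, and 0 passed limma's adjusted test. Like the members, some of these genes were at least 2-fold brighter in 8-week sample 1 than in any other sample: 10 of the 74, where 67 of all 8251 named genes were (0.812%). The goblet cell list held 4 of the 10, among 8 named genes, and the lipid list 3, among 13 named genes. The lists of brush border enzymes, of transcription factors and of Paneth cells held 0, among 8, 14 and 5 named genes. For lists this short, 0 lies near the share of all named genes and does not set them apart.

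**Figure D3:**
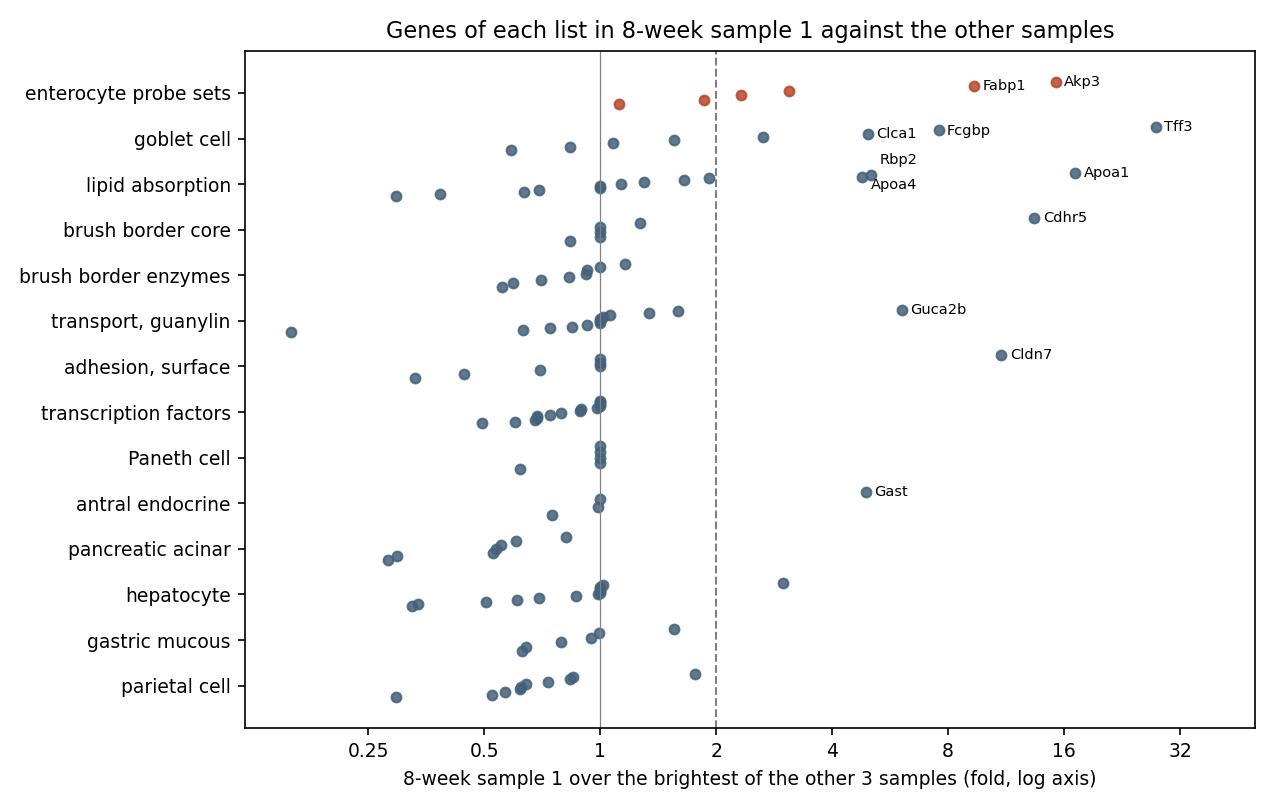
Intensity of 8-week sample 1 over the brightest of the other 3 samples (fold, log axis, values under the floor set to it) for the 6 enterocyte probe sets in red and for each named gene of 13 other lists in grey-blue, the dashed line marking 2-fold. Akp3, at 15.2-fold, lies among Tff3, Apoa1, Cdhr5 and Cldn7. All parietal cell and gastric mucous genes lie under 2-fold, but only 0.812% of all 8251 named genes reach it, so this does not set gastric genes apart.

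Genes of lipid absorption, the process the fatty acid carriers serve, were mixed. The apolipoprotein Apoa4, which intestinal cells secrete on chylomicrons, read 504 and 246 in the 16-week samples, against 2948 and 616 in the 8-week samples, a difference of -1.93 ± 0.81 (limma adjusted p = 0.371), or -0.80 without 8-week sample 1. Apoa1, the main protein of high-density lipoprotein, read 15.6 and 11.6, against 267 and 11.7. Both were brightest in the sample where Akp3 and Fabp2 were. The retinol carrier Rbp2, of the same protein family as the members Fabp1 and Fabp2, read 8.3 and 9 in the 16-week samples, against 61.2 and 4.6 in the 8-week samples.

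Enzymes and carriers used by many cells varied. The lipid transfer protein Scp2 read 120 and 108 in the 16-week samples, against 235 and 207 in the 8-week samples (-0.95 ± 0.24; limma adjusted p = 0.309), and kept that size without 8-week sample 1 (-0.86). The triglyceride-forming enzyme Dgat1 read 99.7 and 119 in the 16-week samples, against 257 and 155 in the 8-week samples (-0.87 ± 0.33; limma adjusted p = 0.353; -0.51 without 8-week sample 1). Its second probe set read 17.1 and 42.5, against 76.5 and 16, so there too 8-week sample 1 was brightest. The acyl-CoA synthetase Acsl5 read 71.3 and 83 in the 16-week samples, against 108 and 69.1 in the 8-week samples. Other genes of the list did not follow the members: Mogat2, which makes diglycerides from absorbed fat, read 20.1 and 41.3, against 12.2 and 17, the lipase relative Pnliprp2 17.5 and 22.9, against 14.5 and 7.3, and Mttp and Cd36 lay under the floor in all samples. The list's median difference over its 10 tested genes was -0.25, against 0.07 over all tested genes. Without 8-week sample 1 it was 0.10, against -0.03 over all tested genes. With the arrays aligned on hybridisation controls it was 0.06, against 0.35. The list thus stayed below all genes with the controls, but not without 8-week sample 1.

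Among the other brush border genes, Cdhr5, a cadherin of the links between microvilli, followed Akp3. It read 12.3 and 8.6 in the 16-week samples, against 209 and 15.6 in the 8-week samples (-2.22 ± 1.20; limma adjusted p = 0.445; -0.35 without 8-week sample 1). The scaffold protein Nherf1 (Slc9a3r1 in the annotation) read 330 and 255 in the 16-week samples, against 483 and 381 in the 8-week samples (-0.57 ± 0.28; limma adjusted p = 0.413; -0.39 without 8-week sample 1). Ezrin (Ezr), which ties actin to the membrane in many epithelia, read 70 and 63.5, against 59.7 and 71.5, with overlapping groups. These 3 were the tested genes of a list of 12, of which 6 were named.

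The brush border enzymes of the list did not show the pattern of Akp3 on their brightest probe sets. Lactase (Lct), the enzyme of milk sugar, read 15.7 and 17.3 in the 16-week samples, against 14.4 and 10.2 in the 8-week samples, close to the floor. Aminopeptidase N (Anpep) read 13.1 and 11.6 in the 16-week samples, against 8.5 and 11.8 in the 8-week samples. The peptidase Dpp4 read 30.4 and 36.9, against 42.8 and 22.6. Ace, another peptidase, read 7.8 and 43, against 25.6 and 24.5. Enpep read 151 and 167 in the 16-week samples, against 93 and 119 in the 8-week samples, on a probe set of reduced probe number (_r_at). Its other probe set, near or under the floor, read 10.9 and 16.5, against 8.3 and 7.9. Of meprin beta (Mep1b), the brighter probe set, also _r_at, read 19.4 and 13.6 against 21.8 and 21.8. The dimmer one read 3.7 and 5.9 against 20 and 1.8, so only the dimmer placed 8-week sample 1 alone above the floor. Outside the list, the brush border peptidase neprilysin (Mme) read 2.2 and 4.5, against 36.1 and 4.6, with 8-week sample 1 alone above the floor. The sucrase gene Sis is not named by the annotation used here.

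Transporters and the guanylin system were mixed. Uroguanylin (Guca2b), a peptide of intestinal epithelium that controls salt secretion, read 32.6 and 10.4 in the 16-week samples, against 198 and 21.2 in the 8-week samples. Guanylin (Guca2a) read 14.3 and 26.2, against 16.5 and 8.5, and the receptor of both peptides, Gucy2c, 13.8 and 16.7, against 12.4 and 11.4. The iron importer Slc11a2 read 75.4 and 86.5, against 87.9 and 77.7. The amino acid carrier Slc7a9 read 21.3 and 28, against 44.5 and 17.3. Carbonic anhydrase 4 (Car4) was dimmest in the sample where the members were brightest, at 128 and 98.6 in the 16-week samples, against 20.3 and 69.4 in the 8-week samples, although its second probe set read 47 and 23 against 30.7 and 34.8. The glucose transporter Slc5a1 stayed under the floor in all samples.

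The regulators of intestinal identity lay under the floor or did not stand out in 8-week sample 1. The homeobox factor Cdx1, which helps to specify intestinal epithelium, read 6.5 and 6.5 in the 16-week samples, against 4.5 and 4.9 in the 8-week samples. Cdx2, which does the same, read 4.1 and 6.3, against 7.6 and 4.9, so both stayed under the floor. Hnf4a, a nuclear receptor of liver and gut, also stayed under it, between 5 and 10.1. Factors that the stomach itself expresses were brighter and did not stand out in 8-week sample 1: Gata4 gave 373 and 331 at 16 weeks, with 318 and 463 at 8 weeks, Klf4 125 and 149 against 156 and 176, Gata6 97.1 and 112 against 107 and 144, and the Notch target Hes1 140 and 112 against 125 and 130. Klf5, a factor of proliferating gut epithelium, read 28.1 and 18.7, against 36.9 and 74.7, a difference of -1.20 ± 0.43 (limma adjusted p = 0.349) with the direction of Lgals4 but its highest value in 8-week sample 2. Of the 10 tested factors, 0 were brightest in 8-week sample 1, where 999 of all 5864 tested genes were (17%). With so few factors, 0 is not far from that share.

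Surface and adhesion genes were divided. The tight junction protein Cldn7 read 10.2 and 8.9 in the 16-week samples, against 134 and 9.9 in the 8-week samples, on a probe set whose suffix (_f_at) marks a sequence family. Keratin 20 (Krt20) ran the other way, at 39.5 and 40.8, against 13.5 and 22, a difference of 1.22 ± 0.32 (SE). So did Ceacam1, at 23.1 and 27.5, against 11.9 and 6.6, a difference of 1.05 ± 0.24 (SE). Relative to their SE, these differences were larger than that of Lgals4 (-1.46 ± 0.45). The 8-week values of Ceacam1 lay under the floor. Its second probe set lay under the floor in all samples, at 6.4 and 8.3, against 4.9 and 10.2. The mucin Muc13 read 97.6 and 136, against 94.9 and 96. No gene of this list passed the test, so a direction is not drawn from any of them.

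Goblet cells are the mucus-secreting neighbours of enterocytes, and their markers were read to see which cell types moved with the members. Of 10 genes on the list 8 were named, and their summed intensity was 261 and 474 in the 16-week samples, against 1806 and 246 in the 8-week samples. The trefoil peptide Tff3 read 15.7 and 13.2, against 493 and 17.8 (-2.70 ± 1.52; limma adjusted p = 0.461; -0.31 without 8-week sample 1). The mucus protein Fcgbp read 60.2 and 62.5, against 550 and 72.7 (-1.70 ± 0.94; limma adjusted p = 0.453; -0.25 without that sample). Clca1, secreted by goblet cells, read 33.6 and 51.2, against 254 and 23.5, on a probe set of reduced probe number (_r_at), and Zg16 read 41.7 and 234, against 363 and 16.5. A second Clca1 probe set, near or under the floor, read 4.6 and 13.5, against 16.2 and 6.5, without such a gap. Tff3, Fcgbp and the brighter Clca1 probe set shared the peak of Akp3, whereas Zg16 was also bright in 16-week sample 2. The rest of the list did not share it: Agr2 read 63.8 and 70.8, against 89.3 and 82.6, Spdef 17.7 and 11.7, against 14.8 and 11.4, and Spink4 20.7 and 18.5, against 10.5 and 17.2, except Retnlb at 7.3 and 11.9, against 32.2 and 4.6. Muc2 is not named by the annotation used here.

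Markers of other neighbouring tissues were read in the same way, and none was at 0 in any sample. For Paneth cells 5 of 12 genes were named, with a summed intensity of 95.2 and 85.1 in the 16-week samples, against 56 and 52.2 in the 8-week samples, of which the lectin Itln1 made up 63 and 60.7, against 39 and 30.7. For the antral endocrine list (4 of 5 named) the sums were 469 and 346, against 1305 and 647. Gastrin (Gast), the hormone of antral G cells, read 2.7 and 26.8, against 889 and 182, on its brightest probe set, and was brightest in 8-week sample 1 on all 3 of its probe sets. Its second place in 8-week sample 2 sets it apart from Akp3, Fabp2 and Tff3, which were near or under the floor there. The pancreatic acinar list (7 of 14 named) summed to 2475 and 7027 in the 16-week samples, against 3918 and 1264 in the 8-week samples, so it was brighter in 8-week sample 1 than in sample 2 but brightest in 16-week sample 2, where no member probe set was brightest. Its brightest genes split the same way. The chymotrypsinogen gene Ctrb1 read 541 and 2734, against 1514 and 223, the elastase gene Cela1 226 and 1586, against 834 and 212, and the bile salt-activated lipase Cel 1241 and 1981, against 1062 and 279, while colipase (Clps) read 391 and 389, against 395 and 484. Hormones of the list that the acid-secreting mucosa also makes did not stand out: somatostatin (Sst) read 132 and 142, against 165 and 167, and ghrelin (Ghrl) 327 and 171, against 245 and 295. The hepatocyte list (13 of 15 named), relevant because liver also makes Fabp1 and Apoa1, summed to 412 and 453, against 405 and 422. Albumin (Alb) read 25.4 and 14.4, against 75.8 and 18. The liver proteins Apoh and Fgb lay under the floor in all samples, but others of the list did not. F2 read 14.8 and 12.6, against 28.7 and 33.1 (-1.17 ± 0.25; limma adjusted p = 0.301). The brighter Apoa2 probe set ran the other way, at 22.2 and 36, against 11.9 and 9.5. The list's brightest genes, which are not made by liver alone, were Cyp2e1 at 159 and 128, against 104 and 171, Hp at 69.3 and 96, against 66.7 and 66.7, Cps1 at 38.5 and 52.2, against 53.2 and 45.2, and Ttr at 48 and 50.8, against 25.6 and 42.3.

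Gastric genes were set beside the members. The parietal cell list (10 of 12 named) summed to 8198 and 7216, against 8212 and 10080, and the gastric mucous list (6 of 11 named) to 4903 and 4720, against 5699 and 5752. The proton pump subunit Atp4b read 915 and 634, against 1091 and 1701, intrinsic factor (Cblif) 1147 and 1479, against 1254 and 1715, and creatine kinase B (Ckb) 414 and 277, against 800 and 455. Cblif is part of the parietal list's sum, which is therefore not taken as a readout of parietal cells alone. The surface mucin Muc5ac read 301 and 232, against 364 and 459, Muc1 296 and 267, against 289 and 306, and the gland trefoil peptide Tff2 10.8 and 15.8, against 23.4 and 37.4. Of the 10 tested parietal genes, 2 were lower in both 16-week samples than in both 8-week samples, as Lgals4 was: Atp4b (-0.84) and Ckb (-0.83). Of the 6 tested mucous genes 3 were: Muc5ac (-0.63), Tff2 (-1.09) and Tff1 (-0.24). In each list 1 gene was higher in both 16-week samples. Over all probe sets other than controls, 15.5% were lower without overlap. In both lists 0 genes passed limma's adjusted test, so no direction is drawn from them. Ckb was brightest in 8-week sample 1. So was Dmbt1, a scavenger receptor protein also made by intestinal epithelium, which read 28.4 and 75.9, against 117 and 18.3. In both lists, 0 genes were 2-fold brighter in 8-week sample 1 than in every other sample, where 67 of all 8251 named genes were (0.812%). In lists this short, 0 lies near that share and does not set gastric genes apart. What part the tissue or cell makeup of 8-week sample 1 had in the values of the members was not tested.

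Relatives of the members by sequence family were read beside them. Of the galectins, Lgals1 read 185 and 202 in the 16-week samples, against 521 and 296 in the 8-week samples, and Lgals3 57.5 and 84.7, against 174 and 77.1, while Lgals2, another galectin of the gut, read 99.5 and 103, against 95.3 and 127. Lgals9 read 59.2 and 39.2, against 44.5 and 10.5. Like Lgals4, Lgals1 and Lgals3 were thus brightest in 8-week sample 1, and Lgals2 and Lgals9 were not. Lgals3 was 2.06-fold above the brightest other sample there and Lgals1 1.76-fold, short of 2-fold. The median difference of the 8 galectin genes tested, 5 of them higher at 16 weeks and 3 lower, was 0.13, against 0.07 over all tested genes. After quantile normalization it was -0.04, against 0.02 over all tested genes, and on a common median -0.08, against -0.13.

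The other families were mixed. Among fatty acid-binding proteins, the epidermal Fabp5 read 51.5 and 134, against 62.6 and 30.3, the adipocyte Fabp4 22.2 and 21.4, against 21.3 and 11.9, and the bile acid carrier Fabp6 33.3 and 60.2, against 23.1 and 44.2. None of these 3 was brightest in 8-week sample 1. Fabp9 read 19 and 6.7, against 19.5 and 22.5, and the retinoic acid carrier Crabp1 7.6 and 12, against 19.3 and 17.5. Of the phosphatases, the tissue-nonspecific alkaline phosphatase Alpl read 21.9 and 22.8, against 30.9 and 7.3, and Alpg (Alppl2 in the annotation), a close relative of Akp3, 47.2 and 35.8, against 37.8 and 41.1. A second Alpg probe set read 13.4 and 28.8, against 29.8 and 12.4. The acid phosphatases Acp2 and Acp5 and the unrelated phosphatase Acp1 were not brightest in 8-week sample 1 on any probe set. Of the villin relatives, gelsolin (Gsn), an actin-severing protein of many cells, read 143 and 117, against 418 and 212, while scinderin (Scin) read 20.1 and 51, against 5.7 and 29.9, and Flii, supervillin (Svil) and Capg were not brightest in 8-week sample 1 on their brightest probe sets.

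The genes nearest in pattern were sought among 5860 other tested genes by the Euclidean distance of log2 values, each gene centred on its mean over the 4 samples. This was done for Akp3 and Lgals4, the tested members whose values spanned at least 1 log2 unit. For Akp3 the nearest were Apoa1 (distance 0.32), Cdhr5 (0.36), the lipoprotein lipase cofactor Apoc2 (0.82), Fcgbp (0.87) and Tff3 (0.90). For Lgals4 they were S100a10, the partner of annexin 2 at the cell membrane (0.14), the collagen chaperone Serpinh1 (0.25), Spsb2 (0.31), H2-K2 (0.34) and the matrix protein Thbs3 (0.37). S100a10 read 112 and 117 in the 16-week samples, against 512 and 211 in the 8-week samples, and a second probe set read 26.6 and 32.5, against 6 and 8.8. The sets had no gene in common, and 4 samples give many genes a like pattern.

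**Figure D4:**
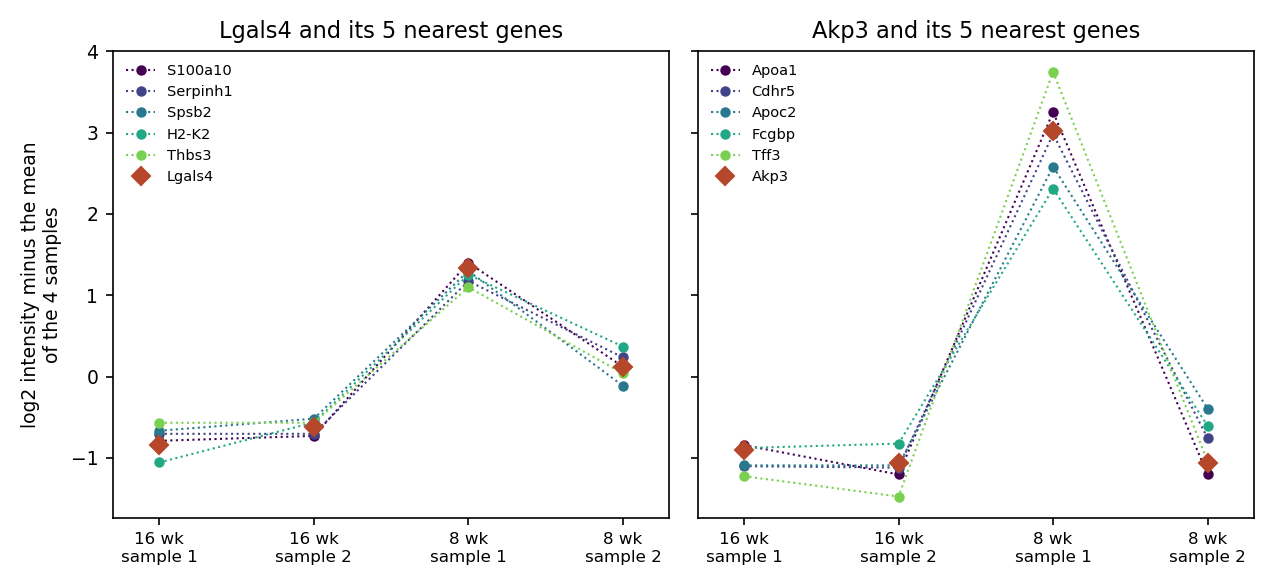
Log2 intensity of Lgals4 and Akp3 (diamonds) and of the 5 genes nearest to each (dotted lines), centred on the mean of the 4 samples, 16-week samples on the left and 8-week samples on the right. Lgals4 and its neighbours stand highest in 8-week sample 1 and next in 8-week sample 2, while Akp3 and its neighbours stand out in 8-week sample 1 alone.

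The distances between members were taken in the same way. Akp3 lay nearest to the brighter Fabp1 probe set (0.71) and farthest from the dimmer one (3.14), and Lgals4 lay nearest to Fabp2 (0.72). Fabp2 and Vil1, both close to the floor in most samples, lay 0.61 apart, and the 2 probe sets of Fabp1 lay 2.43 apart. The distances shrink for dim probe sets, whose values stop at the floor, so they are given as a description.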

How the data were processed

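Total RNA from gastric mucosa of 4 Mastomys natalensis samples was measured on 1-colour Affymetrix mouse U74 arrays, as the labels state. The values are the authors' deposited intensity per probe set. Any earlier background or scaling step was not given in the sources used here. Each array's mean after trimming (2% per end) lay within 4.76% of their mean, under a limit of 10%, so the scale was kept. Gene names came from the platform annotation (10833 of 12422 probe sets with 1 symbol, 396 with several, 1193 unnamed; 66 controls left out).

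Values under the floor (12.15, the median over arrays of the 40th percentile) were set to it before log2. Probe sets above it on at least 2 of 4 arrays were tested with limma 3.58.1 (R 4.3.3), 2-sided and Benjamini-Hochberg adjusted over 7883. Named were all members, the 4 brightest tested genes of each list, defining markers and nearest genes. Others (Rbp2, Guca2a, Gucy2c, Anpep, Hnf4a, Slc5a1, Apoh, Fgb, F2, Apoa2, Alpl, Scin, Fabp6, Cldn7, Mogat2, Pnliprp2, Mttp, Cd36, Klf5, Agr2, Spdef, Spink4, Retnlb, Mme) were named after their values were seen. Members, lists and the comparison of 8-week sample 1 with the brightest other sample were chosen with earlier results of these data known. Alternatives changed the scaling, floor, filter, offset, replicate block or left out a sample; with a sample left out the tested set was kept and the lone sample was assumed to vary like the other group. The lower floor also admits more probe sets (10417).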

Additional observations from a re-analysis of the deposited data

How the results depend on the processing

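No member passed limma's test under any alternative run, and all members tested in each had the sign given, except Akp3 at 0.08 without 8-week sample 1. Over the alternatives Lgals4 lay between -2.07 and -0.85 (limma adjusted p 0.245 to 0.641), Akp3 between -4.00 and 0.08, Vil1 between -1.50 and -0.04, and the dimmer Fabp1 probe set between -1.07, as the mean of both probe sets, and -0.24. Without a filter the untested Fabp1 and Fabp2 probe sets gave -1.61 and -0.81 (limma adjusted p 0.827 each). Above the floor on all arrays only 1 member probe set, Lgals4, was left. Without a filter 22 probe sets passed over the whole array, none of them a member, against 0 in the fit reported. The replicate numbers are shared by label only, and same-numbered samples' deviations correlated at -0.05. With the replicate block the differences stayed at -1.46 for Lgals4 and -1.96 for Akp3, and 0 probe sets passed limma's test (987 at an unadjusted p under 0.05, against 1100). The gap between the 8-week samples was 2-fold on at least 4 of 6 member probe sets under each scaling, floor and offset. Of the other genes named, Acsl5 changed sign with hybridisation controls (0.15) and ranged from -0.49 to 0.15 with a sample left out, Ezr changed sign after quantile normalization (-0.01), on a common median (-0.19) and with a sample left out (-0.10 to 0.16), Clca1 ranged from -2.61 to 0.82 and Zg16 from -1.88 to 2.58 with a sample left out. The cause was not tested. Scaling moved the median difference over all probe sets, 0.09 on the deposited scale, to -0.11 on a common median and 0.36 with hybridisation controls. Signal near the floor limits Akp3, Vil1, Fabp2 and both Fabp1 probe sets, and 2 samples per group limit all.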
